A study of Mus musculus with 12 samples.

Results

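Rab GTPases are small proteins that switch between a GDP-bound and a GTP-bound form and, in the GTP-bound form, recruit the tethers, motors and sorting proteins that move vesicles between membranes. Each member marks its own set of compartments, so the family maps the route from the endoplasmic reticulum through the Golgi to the surface, and from the surface through endosomes to lysosomes. In antigen-presenting cells these routes carry MHC molecules, phagosomes and, in Langerhans cells, the Birbeck granules that form from langerin-bearing recycling membranes. The 58 genes described here were all symbols of the deposited table made of "Rab" and a number, with an optional letter and digit, out of 23420 symbols. Effectors and regulators of Rab proteins were not members. The table names Rab1a as Rab1 and Rab29 as Rab7l1, and all 58 symbols were found in the GENCODE M21 annotation of GRCm38, directly or through the current name.

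RNA came from the epidermis of mice, from cells gated as CD45+, CD3-, CD11b+ and MHCII+ together, a gate that takes in Langerhans cells and other myeloid cells. The groups were Cbfβ2 knockout mice at 1.5 months after birth (1.5M KO), wild-type mice at 1.5 months (1.5M wt), Cbfβ2 knockout mice at day 5 after birth (P5 KO) and wild-type mice at day 5 (P5 wt). Cbfβ2 is one of the splice variants of CBFβ, the protein that pairs with Runx transcription factors on DNA. Each group had 3 libraries of 100 sorted cells, described in the labels as separate library preparations, so p-values measure the spread between these libraries, which may be technical. The sources used here do not say whether cells of several animals were pooled or how the allele was made.

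Values are scaled molecule counts, in which each molecule was tagged once near its 3' end, so they were not divided by gene length and do not separate splice forms. The level of Cbfb as a whole therefore cannot check the loss of its Cbfβ2 form. Depth ran at 74620 to 77419 molecules per library in 1.5M KO against 40254 to 51848 in 1.5M wt, and at P5 it ran at 30913 to 51001 in KO against 34192 to 52208 in wt. All 3 libraries of 1.5M KO had greater depth than any other library. Cd207, the langerin gene that defines Langerhans cells, had 18.7 to 24.9 scaled counts in 1.5M KO against 188.9 to 252.3 in 1.5M wt. At P5 it was 0 in every KO library and 0.71 to 2.93 in wt libraries, where a 0 over the group allows up to 0.907. The marker that defines the cell type was thus lower in every other group than in 1.5M wt and close to 0 at P5. These were bulk samples of mixed cells, in which fewer cells of a type and less RNA per cell cannot be told apart.

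Rab14 was the single Rab gene past the test in any comparison, and its log2 fold changes between knockout and wild type had opposite signs at the 2 ages. It was higher in 1.5M KO than in 1.5M wt, lower in 1.5M wt than in P5 wt, and the difference between its knockout effects at 1.5M and P5 was itself significant. Rab14 works between the Golgi and early endosomes and is found on the phagosomes of macrophages. The gene lies on chromosome 2 from 35180205 to 35201120 on the minus strand (GRCm38, mm10) and overlaps no other annotated gene.

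Rab14 had 13.9, 10.4 and 14.9 scaled counts in the 3 libraries of 1.5M KO, against 3.69, 4.29 and 5.33 in those of 1.5M wt. In P5 KO it had 8.17, 9.45 and 6.0, against 17.1, 23.9 and 14.7 in P5 wt. At each age the knockout and wild-type libraries did not overlap, and the knockout libraries were the higher ones at 1.5M and the lower ones at P5. The values rest on approximately 29, 21 and 31 molecules in 1.5M KO and 4, 6 and 6 in 1.5M wt, while P5 KO had 9, 13 and 5 and P5 wt had 24, 22 and 15.

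The means were 13.1 ± 2.32 in 1.5M KO and 4.44 ± 0.83 in 1.5M wt (SD, n = 3 each), a log2 fold change of 1.37 on the log2(scaled count + 1) scale (SE 0.30, limma adjusted p = 0.00520). At P5 they were 7.88 ± 1.75 in KO and 18.5 ± 4.78 in wt. The log2 fold change there was −1.13 (SE 0.30), with a limma adjusted p of 0.0523, above the threshold of 0.05. The knockout effect at 1.5M minus that at P5 was 2.5 on the log2 scale (SE 0.42, 95% interval 1.63 to 3.37, limma adjusted p = 0.00107). With age, Rab14 fell in wild type (log2 fold change −1.83, SE 0.30, limma adjusted p = 0.000339), where the mean of 1.5M wt was 0.240 times that of P5 wt. In 1.5M KO against P5 KO it did not pass (0.67, SE 0.30, 95% interval 0.05 to 1.29, limma adjusted p = 0.296), although those libraries did not overlap.

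From high to low, the group means ran P5 wt, 1.5M KO, P5 KO and 1.5M wt. The ranges of P5 wt and 1.5M KO overlapped, and those of the other neighbours in this order did not. P5 wt against 1.5M KO and P5 KO against 1.5M wt were not tested. The higher level in 1.5M KO did not pass when every library was thinned to the same number of molecules (log2 fold change 1.21, limma adjusted p = 0.0622). The difference between its knockout effects at the 2 ages passed in all 20 alternatives (limma adjusted p from 0.000132 to 0.0272).

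**Figure D1:**
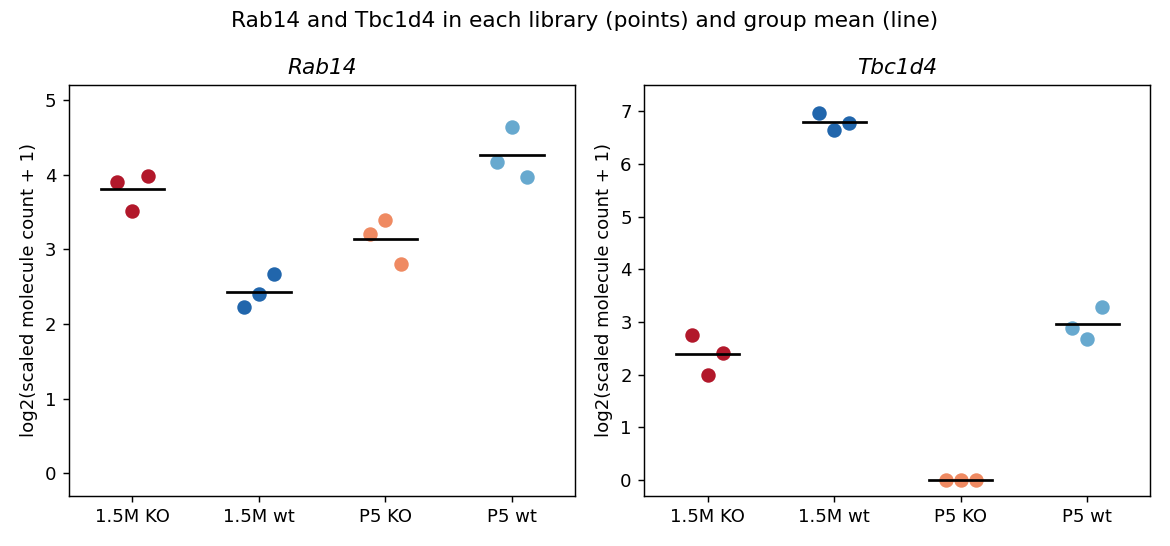
Level of Rab14 (left) and of Tbc1d4, whose product inactivates Rab proteins (right), as log2(scaled molecule count + 1) in each of the 12 libraries, with points for libraries and lines for the mean of the log values in each group. Rab14 lies above wild type in 1.5M KO and below it in P5 KO, while Tbc1d4 lies below wild type in the knockout at both ages and is 0 in all P5 KO libraries.

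The promoter of Rab14 is shown because Rab14 is the Rab gene that passed the test and the deleted protein is a Runx partner. It is also given for Tbc1d4, the Rab regulator that limma called in the knockout at both ages. Both windows are the 250 bases before the RefSeq start on the minus strand of GRCm38.p6, chr2:35201121-35201370 and chr14:101609192-101609441, written 5′ to 3′. Capitals would mark a match to the core Runx motif, spelled TGTGGT or TGCGGT on either strand, and there are none.
Rab14: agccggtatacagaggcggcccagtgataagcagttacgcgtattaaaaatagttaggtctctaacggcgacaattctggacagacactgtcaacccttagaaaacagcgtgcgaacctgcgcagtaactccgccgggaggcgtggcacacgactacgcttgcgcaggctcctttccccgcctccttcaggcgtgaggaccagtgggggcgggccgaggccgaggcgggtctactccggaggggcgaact
Tbc1d4: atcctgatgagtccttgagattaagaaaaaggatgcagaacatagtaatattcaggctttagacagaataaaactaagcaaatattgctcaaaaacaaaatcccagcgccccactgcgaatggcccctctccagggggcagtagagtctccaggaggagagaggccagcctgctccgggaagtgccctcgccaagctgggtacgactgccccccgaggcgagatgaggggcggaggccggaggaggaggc
Promoter windows were available for 48 of the 58 Rab genes. Of their 60 windows, 12 held a motif match (20.0%), against 18.6% of all 32851 windows of the same length. The matching windows belonged to Rab3a, Rab7, Rab8a, Rab11a, Rab21, Rab23, Rab27a, Rab28, Rab31, Rab33a, Rab33b and Rab39b. A missing match says only that these letters are not in the window.

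Of the 58 Rab genes, 18 were above 0 in all 12 libraries, and 36 were above 0 in at least 3 libraries and were tested. A further 9 were above 0 in 1 or 2 libraries, namely Rab6b, Rab13, Rab19, Rab25, Rab37, Rab39, Rab40b, Rab42 and Rab44. The remaining 13 were listed at 0 throughout. They were Rab3b, Rab3c, Rab7, Rab9b, Rab15, Rab17, Rab20, Rab23, Rab26, Rab30, Rab33a, Rab36 and Rab39b. Among the tested genes, Rab33b had fractional molecule numbers in 12 libraries, Rab27b in 6, and Rab3d and Rab27a in 1 each. How the authors' counting gave fractions is not stated, and those values are uncertain.

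Rab genes of the endoplasmic reticulum and Golgi had 9 tested members, with means over the 12 libraries from 0.33 scaled counts (Rab34) to 5.74 (Rab2a). Rab2a, which acts in membrane traffic around the Golgi, averaged 4.2 ± 1.79 in 1.5M KO and 6.63 ± 1.98 in 1.5M wt, and 5.07 ± 1.88 in P5 KO and 7.05 ± 0.68 in P5 wt (SD, n = 3 each). Rab1b, which acts in transport from the endoplasmic reticulum to the Golgi, had 2.40, 5.47 and 3.83 in 1.5M KO, against 7.37, 5.72 and 8.0 in 1.5M wt. In P5 KO Rab1b had 5.45, 5.09 and 4.80, against 7.10, 5.42 and 7.81 in P5 wt. The knockout means of Rab1b and Rab2a were thus the lower ones at both ages, without passing the test (limma adjusted p from 0.285 to 0.740). Rab43, which has been placed at the Golgi, averaged 4.52 ± 1.07 in 1.5M KO and 7.71 ± 3.03 in 1.5M wt, while P5 KO had 3.89 ± 3.91 and P5 wt 5.19 ± 2.82. In P5 KO the libraries of Rab43 ran from 1.45 to 8.4, which takes in all P5 wt values. Rab6a, a Golgi Rab chosen after its values were seen, had 3.84, 2.98 and 2.40 in 1.5M KO, against 6.45, 6.44 and 6.22 in 1.5M wt. These libraries did not overlap, and the difference did not pass (limma adjusted p = 0.290, but 0.0492 in a fit of those 6 libraries alone). Other genes are annotated over Rab5a, Rab6a, Rab10, Rab11a, Rab11b, Rab27a, Rab27b, Rab31, Rab33b, Rab38 and Rab43. Among the further tested genes, the same holds for Rab2b, Rab3a, Rab4a, Rab4b, Rab18, Rab22a, Rab24, Rab35 and Rab40c. It also holds for Rin2, Dennd4a, Rab11fip5, Myrip, Rabgef1 and Tbc1d4, regulators and effectors given with values below. Some of the overlapping genes are on the same strand, and the use of strand is not stated, so molecules there may belong to either gene.

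Rab genes of early endosomes had 10 tested members, from Rab4a at a mean of 0.34 scaled counts to Rab14 at 10.98. The Rab5 genes control fusion of endocytic vesicles with early endosomes. Rab5c had 5.75, 10.4 and 7.19 in 1.5M KO and 6.45, 5.01 and 5.33 in 1.5M wt. At P5 it had 9.08, 5.82 and 4.80 in KO and 6.39, 6.51 and 7.81 in wt. The libraries of Rab5c overlapped at both ages, and its knockout effects had 95% intervals from −0.29 to 1.07 at 1.5M and from −0.78 to 0.58 at P5 on the log2 scale.

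Rab5a and Rab5b were singled out after their values were seen. Rab5a had 5.45, 2.91 and 4.80 in P5 KO, against 1.42, 2.17 and 0.98 in P5 wt. Rab5b had 2.72, 2.18 and 2.40 in P5 KO, against 6.39, 5.42 and 3.91 in P5 wt. The groups did not overlap for either gene, with Rab5a the higher and Rab5b the lower in P5 KO. Neither passed over all genes (log2 fold change 1.09, SE 0.38, limma adjusted p = 0.191 for Rab5a, and −0.84, SE 0.35, limma adjusted p = 0.294 for Rab5b). Rab31, which acts between the trans-Golgi network and endosomes, was chosen in the same way. It had 6.23, 10.4 and 5.27 in 1.5M KO and 4.61, 2.15 and 2.67 in 1.5M wt, groups that did not overlap (limma adjusted p = 0.217).

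Recycling and polarised exocytosis had 7 tested members, from Rab12 at a mean of 1.22 scaled counts to Rab10 at 6.45. Rab10, which acts in delivery of vesicles to the surface, had 5.75, 7.95 and 6.71 in 1.5M KO and 10.1, 8.58 and 4.44 in 1.5M wt. At P5 Rab10 had 7.27, 2.18 and 3.60 in KO and 8.53, 5.42 and 6.84 in wt. Both pairs of groups overlapped. Rab11a, a marker of the recycling endosome that has been tied to langerin and Birbeck granules, averaged 5.66 ± 0.16 in 1.5M KO and 6.50 ± 4.45 in 1.5M wt. At P5 it averaged 4.47 ± 0.93 in KO and 4.35 ± 2.08 in wt (SD, n = 3 each). The 95% interval of its knockout effect was −0.87 to 1.06 at 1.5M and −0.86 to 1.07 at P5 on the log2 scale, which leaves room for changes of close to a doubling either way. Rab11b averaged 4.35 ± 1.39 in 1.5M KO and 5.07 ± 2.84 in 1.5M wt, and 3.13 ± 1.73 in P5 KO and 7.94 ± 2.60 in P5 wt. The P5 groups of Rab11b did not overlap, but the difference did not pass (log2 fold change −1.18, SE 0.44, limma adjusted p = 0.235). Rab8b, a Rab of exocytic vesicles chosen after its values were seen, had 6.36, 4.36 and 9.60 in P5 KO, against 1.42, 3.25 and 3.91 in P5 wt. Its P5 libraries did not overlap either, with KO the higher (limma adjusted p = 0.284).

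The tested Rab genes of late endosomes and of secretory vesicles were low. Each of these groups had 4 tested members, with means from 0.77 (Rab38) to 2.31 (Rab32) and from 0.14 (Rab3a) to 2.76 (Rab3d) scaled counts. Rab7, also of late endosomes, was listed at 0 throughout and left out of these ranges. Whether its transcripts were absent or not assigned to the symbol was not tested. Rab27a, Rab32 and Rab38 serve melanosomes and other lysosome-related organelles, and Rab27a also serves secretory granules of immune cells. These 3 genes and Rab27b are described because their libraries at P5 were mostly the higher ones, a choice made after the values were seen.

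Rab27a was 0, 0.50 and 0 in 1.5M KO and 0 in all libraries of 1.5M wt. At P5 it had 3.63, 1.45 and 2.40 in KO and 0.71, 1.08 and 3.42 in wt. The ages did not overlap in either genotype, and neither change passed (limma adjusted p = 0.0846 for 1.5M KO against P5 KO and 0.126 for 1.5M wt against P5 wt). Rab38 was 0 in all 6 libraries of 1.5M, against 3.63, 2.18 and 0 in P5 KO and 1.42, 1.08 and 0.98 in P5 wt (limma adjusted p = 0.169 in KO and 0.206 in wt). A group at 0 in 1.5M wt could still hold up to 0.831 scaled counts, the worth of 3 molecules over the group, and one in 1.5M KO up to 0.485. These bounds cover counting error only.

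Rab32 averaged 0.81 ± 0.29 in 1.5M KO and 1.93 ± 0.96 in 1.5M wt, and 3.26 ± 1.31 in P5 KO and 3.22 ± 1.58 in P5 wt (SD, n = 3 each; limma adjusted p = 0.206 for 1.5M KO against P5 KO). Rab27b, with fractional values in 6 libraries, averaged 0.19 ± 0.32 in 1.5M KO and 0.08 ± 0.08 in 1.5M wt, while P5 KO had 1.08 ± 1.03 and P5 wt 1.52 ± 1.44. Melanocytes express several of these genes. Of the 10 melanocyte markers, 5 were 0 in every library, namely Pmel, Mlana, Tyr, Tyrp1 and Sox10. The sum of all 10 ran at 0.96 to 2.49 in 1.5M KO against 0 to 0.89 in 1.5M wt, and at P5 it ran at 0.91 to 2.40 in KO against 1.08 to 3.91 in wt. In 1.5M KO the sum was Mitf alone, and in 1.5M wt it was Kit alone, so it does not measure melanocytes as a set there. The part of melanocytes in the Rab values was not tested.

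Of 5 remaining members, placed at cilia or elsewhere, Rab28 and Rab40c were tested. Rab28, a Rab of cilia that was chosen after its values were seen, had 1.44, 1.49 and 1.44 in 1.5M KO, against 0, 0.72 and 0 in 1.5M wt. At P5 Rab28 had 3.63, 2.91 and 2.40 in KO, against 2.13, 1.08 and 1.95 in wt. The KO libraries lay above wt at both ages without passing (limma adjusted p = 0.264 at 1.5M and 0.684 at P5).

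**Figure D2:**
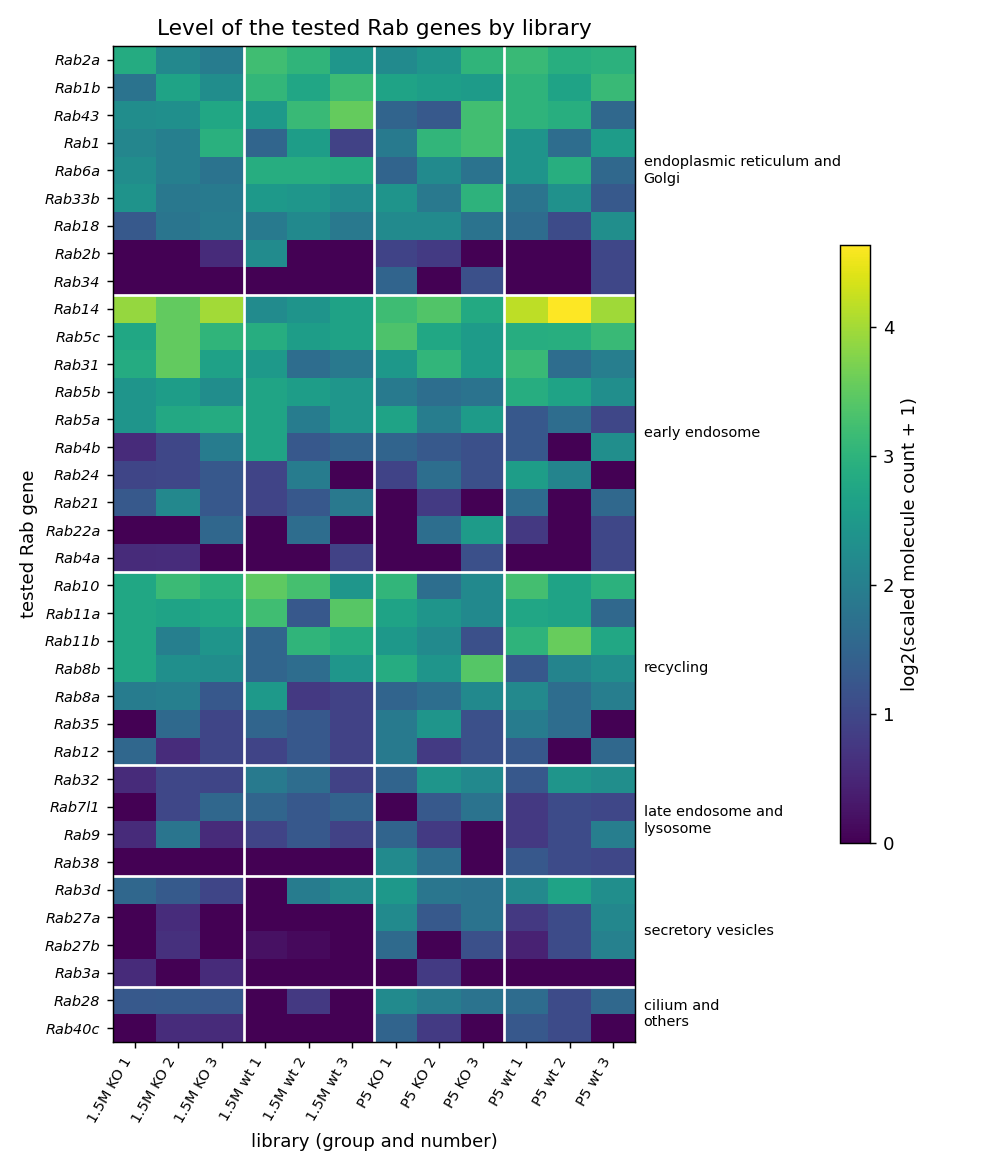
Level of the 36 tested Rab genes (rows, grouped by main compartment) in the 12 libraries (columns), with colour for log2(scaled molecule count + 1). Rab14 is on average the brightest row and is dimmest in 1.5M wt, and Rab27a and Rab38 are at or near 0 in both 1.5M groups.

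In 1.5M KO against 1.5M wt, limma called 1 of the 36 tested Rab genes higher and 0 lower. Of all 10023 genes tested it called 5.28%, with 3.24% higher and 2.04% lower. At an unadjusted p under 0.05 there were 5 Rab genes (13.9%), near the 14.9% of all genes. The 5 were Rab14, Rab31, Rab28, Rab1b and Rab6a. Libraries did not overlap for 5 members (13.9%), against 21.1% of all genes. The median log2 fold change was −0.01 over the Rab genes and 0.09 over all genes tested.

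In P5 KO against P5 wt, limma called 0 of 36 Rab genes, against 1.8% of all genes (1.15% higher and 0.649% lower). At an unadjusted p under 0.05 there were 5 (13.9%, with 12.8% of all genes), which were Rab14, Rab5a, Rab11b, Rab8b and Rab5b. Libraries did not overlap for 6 Rab genes (16.7%), against 12.2% of all genes. The median log2 fold change was 0.07 over the Rab genes and −0.01 over all genes. Apart from Rab14, these shares lay within a few points of the background or below it, and are no result about the family. Voom, the other method run, also called 0 Rab genes at P5. For a typical Rab gene the 95% interval of a knockout effect reached 0.95 to either side on the log2 scale. The interval lay wholly between −1 and 1 for 7 Rab genes at 1.5M and for 4 at P5.

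**Figure D3:**
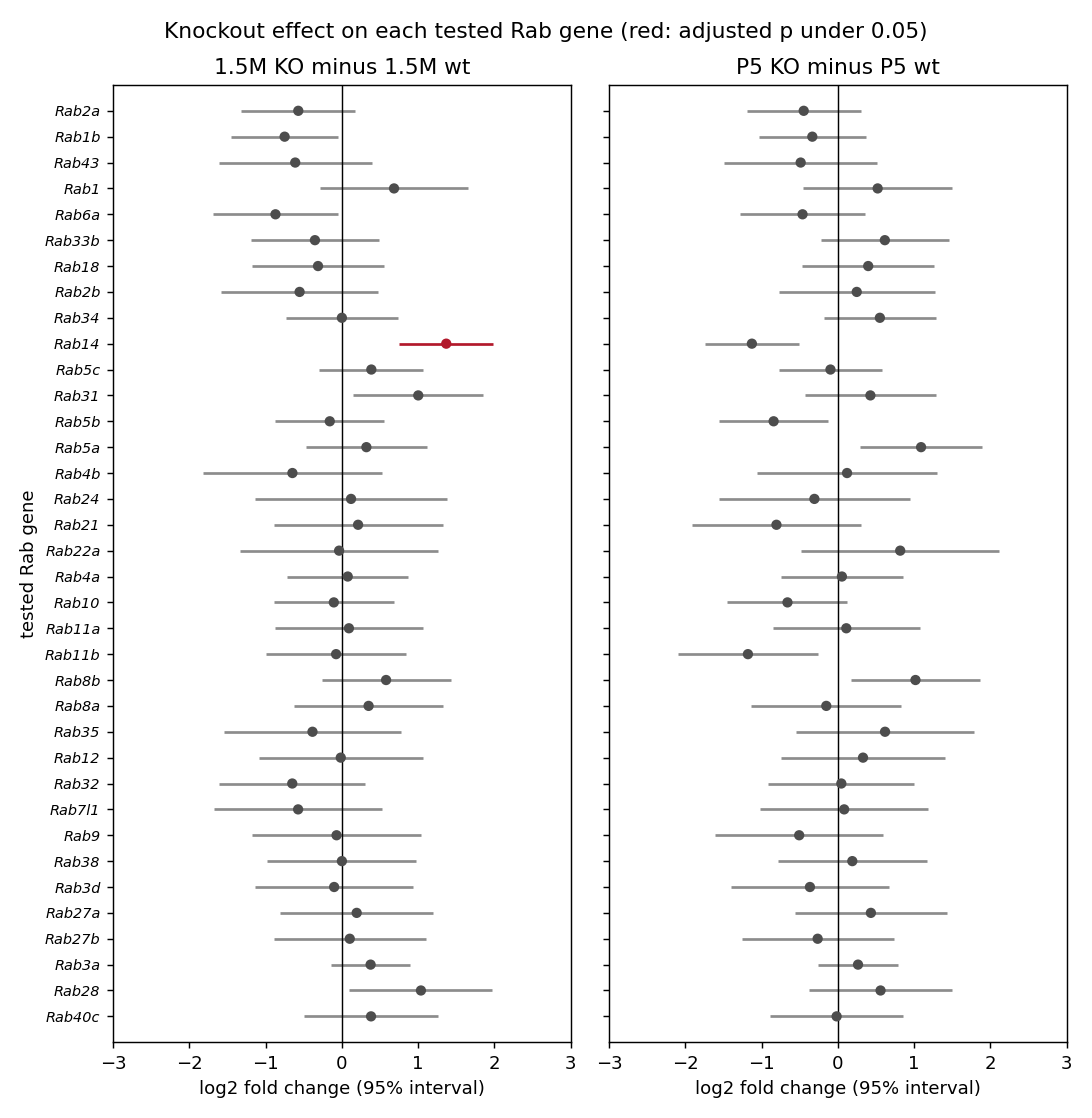
Knockout effect on each tested Rab gene as log2 fold change of log2(scaled molecule count + 1), at 1.5M (left, 1.5M KO minus 1.5M wt) and at P5 (right, P5 KO minus P5 wt), with bars for the 95% interval from limma. Rab14, in red at 1.5M, lies on opposite sides of 0 at the 2 ages, and the intervals of most other genes cross 0.

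With age in wild type, limma called 0 Rab genes higher and 1 lower, Rab14, in 1.5M wt against P5 wt, where 5.21% of all genes were called, 2.36% higher and 2.84% lower. At an unadjusted p under 0.05 there were 6 of 36 (16.7%, with 18.2% of all genes), namely Rab14, Rab5a, Rab27a, Rab28, Rab38 and Rab27b. Libraries of the 2 ages did not overlap for 7 members (19.4%), against 19.2% of all genes. The median log2 fold change was −0.04 over the Rab genes and −0.22 over all genes. In 1.5M KO against P5 KO limma called 0 Rab genes, against 3.14% of all genes (1.72% higher and 1.43% lower). There 6 had an unadjusted p under 0.05 (16.7%, with 14.2% of all genes), and libraries did not overlap for 8 (22.2%, with 18.1%). The median there was −0.20 over the Rab genes and −0.06 over all genes. Voom called 3 in that comparison, which were Rab27a, Rab34 and Rab38. Leaving out P5 KO library 2 gave 1 call (Rab34, limma adjusted p = 0.0456), leaving out P5 KO library 3 gave 1 (Rab38, limma adjusted p = 0.0153), and leaving out P5 wt library 3 gave 1 (Rab27a, limma adjusted p = 0.0495). For the difference between knockout effects at the 2 ages, limma called 1 Rab gene higher and 0 lower, against 2% of all genes (1.32% higher and 0.678% lower).

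Summed over all 58 genes, the Rab signal ran at 96.3 to 107.1 scaled counts in 1.5M KO against 98.8 to 108.1 in 1.5M wt, and at 102.0 to 115.3 in P5 KO against 116.4 to 126.4 in P5 wt. The 1.5M groups overlapped, and all P5 KO libraries lay below all P5 wt libraries, with no test made of these sums. This was 0.260% to 0.341% of all molecules, from 95 to 217 Rab molecules a library. Without Rab14 the sums at 1.5M ran at 82.4 to 96.6 in KO against 93.5 to 104.4 in wt, and at P5 the ranges, 92.5 to 107.8 in KO against 98.5 to 109.4 in wt, overlapped. Rab14 held 9.75% to 14.4% of the Rab sum in 1.5M KO and 3.41% to 5.40% in 1.5M wt. In P5 KO it held 5.27% to 9.27% and in P5 wt 12.6% to 19.5%. Between 28 and 32 Rab genes were above 0 in 1.5M KO libraries and 26 to 32 in 1.5M wt libraries, with 31 to 33 in P5 KO libraries and 28 to 35 in P5 wt libraries.

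**Figure D4:**
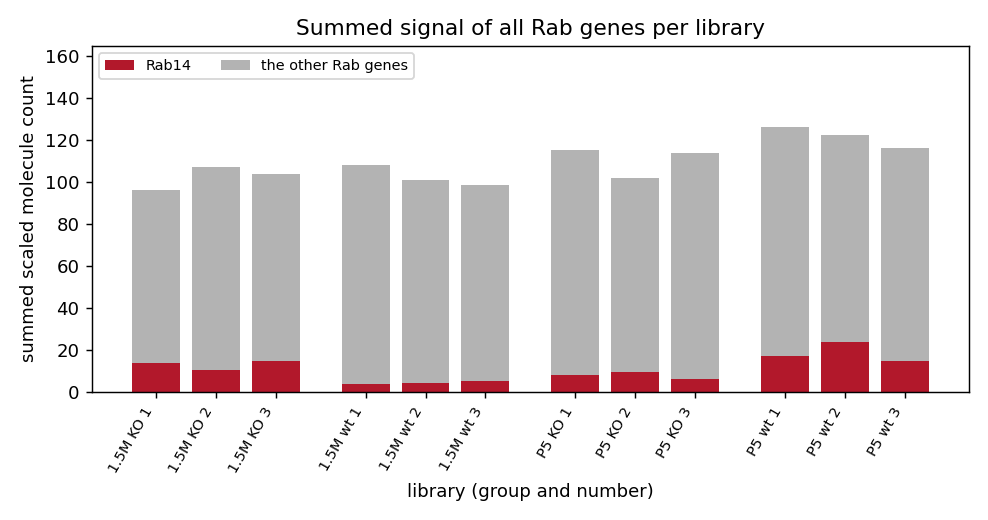
Summed scaled molecule count of all 58 Rab genes in each of the 12 libraries, split into Rab14 (red) and the other Rab genes (grey). The total lies between 96.3 and 126.4 in all libraries, while the Rab14 part runs from 3.69 to 23.9.

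Proteins that load, extract and switch Rab GTPases were read from lists of regulators. Guanine nucleotide dissociation inhibitors, escort proteins and prenylation enzymes keep Rab proteins soluble and lipid-modified, and 0 of 11 tested genes were called in each of the 5 comparisons by limma. Over all genes the called shares ran at 1.8% to 5.28%. At an unadjusted p under 0.05 there were 3 in 1.5M wt against P5 wt, beside 18.2% of all genes. There was 1 for the difference between knockout effects, beside 13.3%, and 0 in the rest. Voom called 1 (Chml, lower in 1.5M wt than in P5 wt). Their summed level ran at 40.9 to 49.0 scaled counts in 1.5M KO against 40.2 to 48.2 in 1.5M wt, and at P5 it ran at 37.0 to 41.8 in KO against 37.3 to 47.0 in wt.

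Of 32 tested GTPase-activating proteins, which switch Rab proteins off, limma called 1 lower and 0 higher in the knockout at each age, and the gene was Tbc1d4 both times. Of all genes limma called 5.28% at 1.5M and 1.8% at P5. Unadjusted p was under 0.05 for 5 at 1.5M and 4 at P5, beside 14.9% and 12.8% of all genes. These counts are near the background and are no result about the list. Voom also called Rab3gap2 higher in 1.5M KO. Tbc1d4 (AS160) acts on Rab8a, Rab10 and Rab14 and is known from insulin-stimulated glucose transporter traffic. It lies on chromosome 14 from 101442360 to 101609191 and overlaps Gm34417 on the same strand. Tbc1d4 had 5.75, 2.98 and 4.31 scaled counts in 1.5M KO, against 124.4, 98.7 and 108.4 in 1.5M wt. In P5 KO it was 0 in all 3 libraries, against 6.39, 5.42 and 8.79 in P5 wt. The knockout libraries were lower at both ages with no overlap, and 1.5M wt stood far above every other group.

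The mean of Tbc1d4 in 1.5M KO was 0.0394 times that in 1.5M wt (log2 fold change −4.41, SE 0.31, limma adjusted p = 1.30e-09). In P5 KO it was at least 7.58-fold lower than in P5 wt, with 3 molecules over the group as the floor (limma adjusted p = 3.21e-05, but 0.206 in a fit of those 6 libraries alone). With age Tbc1d4 rose in wild type, to a mean of 110.5 ± 13 in 1.5M wt against 6.87 ± 1.73 in P5 wt (limma adjusted p = 2.94e-08). In the knockout it averaged 4.35 ± 1.39 in 1.5M KO against 0 in P5 KO, at least 4.80-fold higher (limma adjusted p = 4.14e-05). The difference between its knockout effects at 1.5M and P5 did not pass (−1.45, SE 0.44, limma adjusted p = 0.101).

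Guanine nucleotide exchange factors, which switch Rab proteins on, held 2 of 39 tested genes called higher and 1 called lower by limma in 1.5M KO against 1.5M wt, where 5.28% of all genes were called. At P5 limma and voom called 0 of 39, with 6 at an unadjusted p under 0.05, beside 12.8% of all genes. These counts are near the background and are no result about the list. Rin2, an exchange factor for Rab5, averaged 8.0 ± 2.09 in 1.5M KO and 0.30 ± 0.51 in 1.5M wt (log2 fold change 2.84, SE 0.56, limma adjusted p = 0.00193). Rab3il1, an exchange factor of the Rabin family, had 2.88, 6.46 and 4.31 in 1.5M KO and 0 in all 1.5M wt libraries, at least 5.47-fold higher (limma adjusted p = 0.00159). Dennd4a, of a family of exchange factors for Rab10, had 4.32, 3.48 and 3.83 in 1.5M KO, against 12.9, 12.9 and 14.2 in 1.5M wt (−1.56, SE 0.32, limma adjusted p = 0.00303). All 3 calls were lost by thinning to equal depth, with limma adjusted p of 0.0815 for Rin2, 0.0773 for Rab3il1 and 0.0785 for Dennd4a. Voom also called Trappc9 lower in 1.5M KO.

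Effectors, the proteins that GTP-bound Rab proteins recruit, held 2 of 47 tested genes called higher and 1 called lower by limma in 1.5M KO against 1.5M wt, likewise near the 5.28% of all genes. At P5 limma and voom called 0 of 47, with 5 at an unadjusted p under 0.05, beside 12.8% of all genes. Rab11fip5, which binds Rab11, averaged 6.46 ± 3.38 in 1.5M KO and 0.78 ± 0.73 in 1.5M wt (limma adjusted p = 0.0372). Ocrl, a phosphatidylinositol phosphatase that binds several Rab proteins, had 1.44, 1.49 and 3.35 in 1.5M KO, against 0 in all 1.5M wt libraries, at least 2.52-fold higher (limma adjusted p = 0.0498). Myrip, which links Rab27a to myosin, was 0 in each 1.5M KO library, against 2.76, 1.43 and 0.89 in 1.5M wt, at least 3.49-fold lower on 6 molecules in all. It was above 0 in 1.5M wt alone and so met the filter only through the group where it was high. Its limma adjusted p of 0.00626 (0.0723 in a fit of the 6 libraries of 1.5M alone) is therefore no support for a difference. The calls of Rab11fip5 and Ocrl were fragile, since they passed in 12 and 8 of 21 alternatives, with limma adjusted p up to 0.250 and 0.554. Leaving out 1.5M KO library 2 or 3 or 1.5M wt library 1, 2 or 3 ended both calls, leaving out P5 wt library 1 that of Rab11fip5, and leaving out 1.5M KO library 1 or P5 wt library 2 or 3 that of Ocrl.

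The median log2 fold change of each list is given here beside that of all genes, with no test. In 1.5M KO against 1.5M wt the median was 0.12 for inhibitors, escorts and prenylation enzymes, 0.20 for GTPase-activating proteins, −0.14 for exchange factors and 0.07 for effectors, beside 0.09 for all genes. In P5 KO against P5 wt these medians were 0.10, 0.01, −0.15 and −0.14 in the same order of lists, beside −0.01 for all genes.

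Markers of other cells also differed between the groups compared, and not always in the direction of Rab14. Of 15 tested macrophage and monocyte markers, limma called 10 higher in 1.5M KO than in 1.5M wt and 5 higher in P5 KO than in P5 wt. Of all genes it called 3.24% and 1.15% higher there. All 17 in the table, with Mertk at 0 throughout, summed to 591.5 to 679.4 scaled counts in 1.5M KO against 74.4 to 92.8 in 1.5M wt, and at P5 the sums ran at 240.2 to 311.4 in KO against 166.1 to 211.5 in wt. Of 12 Langerhans cell markers, 9 were called lower in 1.5M KO and 8 lower in P5 KO than in wild type of the same age, beside 2.04% and 0.649% of all genes. Their sums ran at 1276 to 1539 in 1.5M KO against 2552 to 2778 in 1.5M wt, and at P5 they ran at 585.4 to 733.1 in KO against 957.6 to 1095 in wt. These sums mostly hold Cd74 and H2-Ab1, genes of MHC class II, on which the cells were gated, so they do not measure Langerhans cells alone. Cd74 averaged 1049 in 1.5M KO and 1614 in 1.5M wt, and H2-Ab1 246.8 and 547.3. Itgax went the other way, at 34.3 in 1.5M KO and 16.2 in 1.5M wt, and voom called it higher. For 8 of the 15 tested macrophage markers the knockout effect at 1.5M exceeded that at P5 by the same test that Rab14 passed. The share of all genes called higher by it was 1.32%. Among the 8 markers, C1qa, a complement gene of macrophages, averaged 113.1 ± 3.72 in 1.5M KO and 5.40 ± 1.52 in 1.5M wt, and 20.0 ± 4.09 in P5 KO and 30.7 ± 3.87 in P5 wt (difference 4.79, limma adjusted p = 3.07e-09). C1qa was named after its values were seen, and its means were higher in KO at 1.5M and lower in KO at P5, as those of Rab14 were. C1qb, also among the 8, had a lower mean in P5 KO than in P5 wt too. The markers called at P5 went the other way. Of the 15 tested, limma called 0 lower in P5 KO, and Cd14, Fcgr1, Lyz2, Ccr2 and Cx3cr1 were the 5 called higher. Cd14 and Cx3cr1 are among the 8.

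Of 9 tested dermal dendritic cell markers, limma called 2 higher in 1.5M KO than in 1.5M wt, Mgl2 and Ccl17, beside 3.24% of all genes. Voom and limma called 0 at P5. All 10 in the table summed to 33.4 to 74.0 in 1.5M KO against 8.29 to 16.2 in 1.5M wt, and at P5 the sums ran at 11.8 to 20.4 in KO against 17.6 to 20.9 in wt. Mgl2, a lectin of dermal dendritic cells and macrophages that was also named after its values were seen, had means that differed between genotypes in the same directions as those of Rab14 (difference between knockout effects 2.57, limma adjusted p = 0.00579).

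P5 KO libraries also differed in markers of keratinocytes, neutrophils and erythroid cells. The 16 keratinocyte markers summed to 247.0 to 758.7 in P5 KO against 76.2 to 112.3 in P5 wt, while at 1.5M the sums ran at 11.98 to 25.9 in KO against 13.2 to 45.2 in wt. Neutrophil markers, 10 with Mpo and Elane at 0 throughout, summed to 51.9 to 245.5 in P5 KO against 7.95 to 20.0 in P5 wt. Of 4 tested erythroid markers, limma called 2 higher in P5 KO than in P5 wt, Hbb-b1 and Hbb-b2, beside 1.15% of all genes. Both were above 0 in P5 KO libraries alone and so met the filter only through that group. These 2 calls are therefore no support for a difference. All 7 erythroid markers in the table had sums with a lowest value of 1.99, a median of 205.0 and a highest of 266.9 in P5 KO. Their sums were 0 to 2.84 in P5 wt and 0 in every 1.5M library. The part of these cells, and of the greater depth of 1.5M KO, in the Rab14 and Tbc1d4 values was not tested, beyond the thinning given above.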

How the data were processed

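The authors' deposited table gives a signal per gene symbol and library, which is never negative. Per the labels' protocols, 100 cells per tube were lysed, spike-in RNA was added, and reverse transcription used an oligo-dT primer with a molecular barcode. Reads were aligned with TopHat2 and the genome build was mm10, both per the submitters' processing notes; the sources used here do not give the annotation, counting tool, use of strand or scaling. In the deposited signal all libraries have one total, and 92.7% to 94.9% of values above 0 were whole multiples (tolerance 0.01) of one step, taken as 1 molecule. Because the rest were fractions, no count model was the main test.

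Here log2(signal + 1) of the 10023 genes above 0 in at least 3 of 12 libraries went into a single linear model of 4 group means, with limma (version 3.58.1, R 4.3.3), a trend in the variance and no other term. The 5 comparisons used two-sided p-values, adjusted by Benjamini-Hochberg over all genes, and a threshold of 0.05. The fit was tested on simulated data. Described genes are those called in any comparison, the 8 Rab genes of highest mean, and called genes of the regulator lists; other genes given with values were chosen after their values were seen. The members and lists were chosen with earlier results of these data known. Roles were assigned by hand. No replicate pair was alike within sampling noise (1.17 to 2.18 chi-square units for each degree of freedom). Alternatives covered pseudocount, filter, scaling, depth, model, replicate block and left-out libraries. Promoters are from RefSeq (GRCm38.p6).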

Additional observations from a re-analysis of the deposited data

Results flagged for a closer look

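The knockout effect on Rab14 differed between the 2 ages, by a test of the difference itself. The effect at 1.5M (1.5M KO minus 1.5M wt) exceeded that at P5 (P5 KO minus P5 wt) by 2.5 on the log2 scale (SE 0.42, limma adjusted p = 0.00107), and all 3 knockout libraries lay above wild type at 1.5M and below it at P5.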

How the results depend on the processing

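The number of Rab genes called was 0 at P5, 1 at 1.5M, 1 with age in wild type, 0 with age in the knockout and 1 for the difference between knockout effects. It stayed within 1.5 times these numbers in 95 of 104 recomputations. At P5 it became 1 (Rab14) with a pseudocount of 5 or with a filter of above 0 in at least 6 libraries. At 1.5M it became 0 by thinning and 2 with the 6 libraries fitted alone. With age it became 2 in wild type and 3 in the knockout by voom. Leaving out 1 library each gave 0 to 1 with age in the knockout and did not move the other counts. Rab14 kept its direction in all alternatives and was called in 20 of 21 at 1.5M, 21 of 21 with age in wild type, 20 of 20 for the difference and 2 of 21 at P5 (limma adjusted p 0.0335 to 0.222). Median-of-ratios scaling moved the median of all genes with age in wild type to −0.11, from −0.22, and gave Rab14 −1.62 (limma adjusted p = 0.00140). Of all genes it called 289 higher and 184 lower there, against 237 higher and 285 lower in the deposited scaling. Over the settings that moved it by over 1.5 times, the number of all genes called ran at 0 to 118 at P5 (180 as reported, 0 in those 6 libraries alone), 336 to 866 at 1.5M (529 as reported) and 111 to 291 with age in wild type (522 as reported). It ran at 86 to 899 with age in the knockout (315 as reported) and 104 to 348 for the difference between effects (200 as reported). The alternatives for regulator genes were chosen after seeing the data.

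The titles give the groups the same replicate numbers, but libraries with the same number did not deviate together (correlation over 0.1 in 1 of 18 pairs), and 3 of 12 correlated best with their own number. With the replicate number as a block, Rab14 had limma adjusted p = 0.00797 at 1.5M, and the counts of Rab genes called were as without it, at 0, 1, 1, 0 and 1. Ocrl was not called with the block (limma adjusted p = 0.0675). Depth limits these results, since a Rab gene had few molecules per library. The cause of the differences between settings was not tested.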

Other observations

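Some regulator and effector genes were also called with age in wild type. In 1.5M wt against P5 wt limma called 2 of 39 exchange factors higher and 0 lower. It called 1 of 32 GTPase-activating proteins higher and 1 lower, and 1 of 47 effectors higher and 2 lower. Of all genes it called 5.21%, with 2.36% higher and 2.84% lower. These counts are near the background and are no result about the lists. Rabgef1, an exchange factor for Rab5, averaged 5.22 ± 0.57 in 1.5M wt and 0.56 ± 0.50 in P5 wt (SD, n = 3 each; limma adjusted p = 0.00718, but 0.139 by thinning and 0.0614 in a fit of those 6 libraries alone), and Dennd4a averaged 13.3 ± 0.77 in 1.5M wt and 4.53 ± 0.79 in P5 wt (limma adjusted p = 0.0105, but 0.0857 by thinning). Zfyve20, which encodes the Rab4 and Rab5 effector rabenosyn-5, averaged 1.64 ± 1.61 in 1.5M wt and 7.36 ± 1.05 in P5 wt, with fractional molecule numbers (limma adjusted p = 0.0240). It passed in 13 of 21 alternatives and was lost without P5 wt library 1, 2 or 3 or 1.5M wt library 2 or 3. Rab3gap1, a subunit of a Rab3 GTPase-activating complex, was 0 in 1.5M wt and 2.54 ± 0.98 in P5 wt (limma adjusted p = 0.0204), and it too passed in 13 of 21 alternatives. Leaving out any one of the 1.5M wt libraries, or P5 wt library 2 or 3, ended its call. The effectors Myrip, on 6 molecules in 1.5M wt alone (limma adjusted p = 0.00762, but 0.128 in those 6 libraries alone), and Ehbp1l1, lower in 1.5M wt (limma adjusted p = 0.0391, passing in 7 of 21 alternatives), were the other genes of these lists called.

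Rab7, the Rab protein of late endosomes and lysosomes, was listed at 0 in all 12 libraries, and Rab9, which works in the return from late endosomes to the Golgi, was above 0 in 11. Whether Rab7 transcripts were absent or not assigned to this symbol was not tested.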
